A study of Rattus norvegicus with 12 samples.

Results

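A set of 10 genes of antigen presentation was followed in rat hearts that overexpress vascular endothelial growth factor-B (VEGF-B). They were the MHC class II chain genes RT1-Da, RT1-Ba, RT1-Bb and RT1-Db1, the invariant chain Cd74, the immunoproteasome subunits Psmb8 and Psmb9, the peptide transporter subunits Tap1 and Tap2, and the class I light chain B2m. The genes were chosen by name, with earlier results of these data known, and every array probe that carried one of these symbols was used. Of the 10 genes, 9 had a named probe (1 probe each), among 13336 named genes on the array. RT1-Bb had no named probe under its symbol, gene number or accession and was not analysed here. All 9 member probes passed the filter for detectable signal (6 or more of the 12 arrays with a detection p below 0.05), as did 9054 of 22517 probes. Psmb9 passed it mainly through the TG hearts, being detected in 5 TG and 1 WT hearts. With detection in only 1 WT heart, it was tested only because 5 TG hearts detected it, which favours a higher TG value.

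Hearts came from 6 male VEGF-B transgenic (VEGF-B TG) rats aged 2 months, in which the alpha myosin heavy chain promoter drives VEGF-B in cardiomyocytes only. The controls came from 6 male wildtype (WT) littermates of the same age without the transgene. Both genotypes were on the outbred HsdBrl:WH Wistar background, so the animals of a group were not genetically identical. RNA of each left ventricle was read on 1 array of the Illumina RatRef-12 BeadChip, a bead array format in which the brightness of a probe stands for the amount of its transcript.

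MHC class II molecules are pairs of an alpha and a beta chain that carry peptides from engulfed proteins to the surface of macrophages, dendritic cells and B cells, where CD4+ T cells read them. Cd74 shields the empty class II groove and guides the pair to endosomes, where cathepsins trim it and RT1-DM, the rat form of HLA-DM, loads the peptide. Class I molecules are made by nearly all nucleated cells. Their peptides are cut by the proteasome, in which interferon-gamma replaces constitutive catalytic subunits by Psmb8, Psmb9 and Psmb10, and are pumped into the endoplasmic reticulum by the Tap1/Tap2 transporter to meet a heavy chain bound to B2m. The heavy chains and class II chains lie in the RT1 region, the rat MHC, which is known for many near-identical gene copies and for strong variation between individuals. Which copy an RT1 probe reads is therefore uncertain, and values below are named by the probe's annotated gene.

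The promoters of the members are shown first, since class II, class I and proteasome genes are classically grouped by these short control elements. Sequence was taken from the RefSeq promoter table (build GRCr8, 250 bases before to 50 bases after each gene's start), in which all 9 measured members were found. In the promoters of the 3 class II chains, an X box core (GCAACNG) is followed by a Y box core (ATTGG), the paired elements that the class II transactivator complex is known to use, and these cores are in capitals:
RT1-Da: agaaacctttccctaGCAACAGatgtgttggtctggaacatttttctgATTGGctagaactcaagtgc
RT1-Ba: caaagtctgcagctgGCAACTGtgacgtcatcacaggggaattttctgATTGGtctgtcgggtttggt
RT1-Db1: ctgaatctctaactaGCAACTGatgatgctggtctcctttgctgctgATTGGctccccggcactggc
The windows lie at chr20:4515318-4515385 on the plus strand for RT1-Da, chr20:4576966-4577033 on the plus strand for RT1-Ba and chr20:4560223-4560289 on the minus strand for RT1-Db1. The X box core began 82, 76 and 112 bases before the start of RT1-Da, RT1-Ba and RT1-Db1, and the Y box core followed 33, 33 and 32 bases further on, counted from start to start. Searched on both strands, the X box core alone was found in 12.2% of the 33469 promoters in the table and the Y box core alone in 37.5%. The ordered pair, with starts at most 50 bases apart, was found in 0.571% of them. RT1-Db1 held a second Y box core on the opposite strand, 55 bases before its start, and the Cd74 window held only a Y box core, on the opposite strand 189 bases before its start. The short Y box core was not particular to the class II genes, as single copies also lay 73 bases before the start of Psmb8, 64 bases before that of B2m and within the transcribed part of the Psmb9 window.

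The class I side is shown for a different element, the core of the interferon-stimulated response element (GAAANNGAAA, or TTTCNNTTTC on the other strand), which is in capitals:
Psmb8: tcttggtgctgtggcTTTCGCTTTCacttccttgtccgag
Tap1: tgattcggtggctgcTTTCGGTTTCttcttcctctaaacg
Tap2: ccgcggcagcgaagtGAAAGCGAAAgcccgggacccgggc
B2m: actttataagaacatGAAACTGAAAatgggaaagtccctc
These windows lie at chr20:4657011-4657050 for Psmb8, chr20:4668640-4668679 for Tap1 and chr20:4652313-4652352 for Tap2, all on the minus strand, and at chr3:129549165-129549204 on the plus strand for B2m. The response element core was found in 3.92% of all promoters. The Psmb9 window held none, and bases beyond that window were not searched for Psmb9. Its promoter window overlaps that of Tap1 by 44 bases, as the pair of genes is read in opposite directions from a shared stretch. The Tap1 match lies outside these 44 bases, so its absence from the Psmb9 window depends on where that window ends. None of the matches in these members overlapped another. A match is a description of letters, and members with like elements differed in their values as given below.

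Across the 12 arrays, 8820 to 9655 probes were detected in TG hearts and 8452 to 9251 in WT hearts (means 9235 ± 310 and 8817 ± 324, SD, n = 6 each, exact permutation p = 0.0476). Relative to the array's own median, the intensity at the 95th percentile was 12.6 ± 0.63 in TG hearts, against 12.7 ± 0.46 in WT hearts (p = 0.665 by the same exact permutation test). No 2 arrays held identical values, and the first principal component (39.6% of the variance) separated the genotypes, with TG hearts at -23.65 to -7.98 and WT hearts at 9.23 to 18.84. The single rat Vegfb probe averaged 8.01 in TG and 9.05 in WT hearts on the log2 scale (SE of the difference 0.58, limma adjusted p = 0.227) and so does not show the transgene, and the genotype rests on the labels. Cardiomyocyte markers were at high signal in all hearts. Summed off the log2 scale, normalized signals of the 10 tested probes were 114531 to 124276 in TG and 119519 to 125131 in WT hearts. Later sums were formed in the same way. The number of arrays limits the precision. Values below are log2 signals after background correction and quantile normalization, differences are TG minus WT on that scale with their standard error (SE) from limma, and a gene was called higher or lower where the Benjamini-Hochberg adjusted p over all 9054 probes was under 0.05.

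Of the 9 measured members, 3 were called higher in TG hearts (RT1-Da, Psmb8 and B2m) and 0 lower. Without Psmb9, whose filter favoured a higher TG value, 7 of the 8 other members had a difference above 0, with a median of 0.28, against -0.0086 over all tested probes (with Psmb9 the median was 0.24). As background, 11.6% of all tested probes were called higher and 10.3% lower (21.9% in either direction). All 6 TG values lay above all 6 WT values for 2 members (RT1-Da and B2m), against 5.74% of all tested probes. The count of called members rested on single hearts: it was 5 without TG heart 1 and 1 without WT heart 4, and 1 with median scaling in place of quantile normalization. RT1-Da alone was called under all of these. As whole ventricles were measured, a change in the number of cells of a type and a change in RNA per cell cannot be told apart in any of these values.

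**Figure D1:**
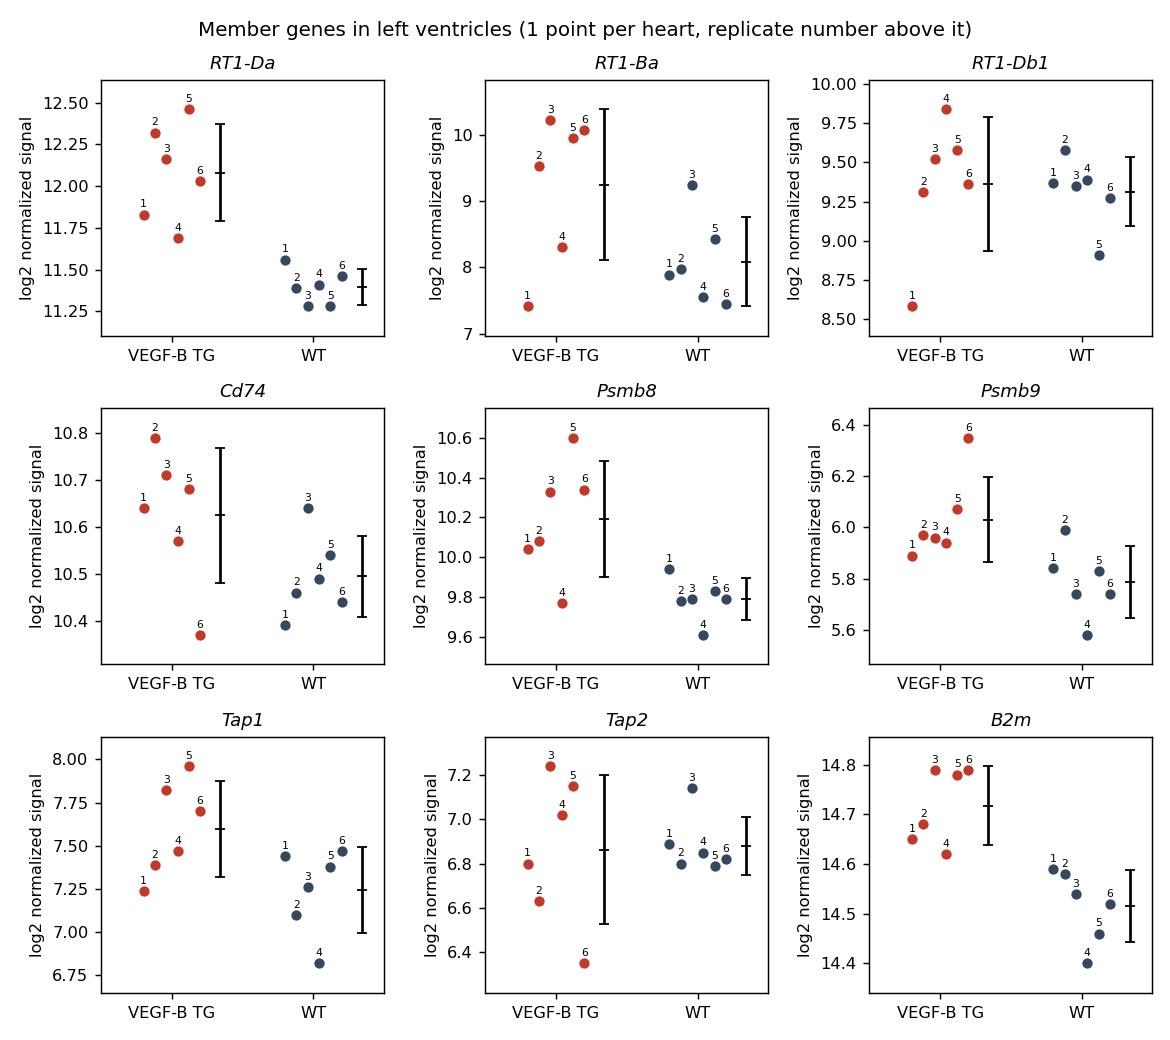
Log2 normalized signal of the 9 measured members, 1 point per heart with its replicate number above it, VEGF-B TG on the left and WT on the right of each panel. Bars give the mean and SD (n = 6 hearts per group). The axes differ between panels and do not start at 0. The groups are separate for RT1-Da and B2m and overlap for the others, and TG heart 1 is the lowest of its group for RT1-Ba, RT1-Db1, Psmb9 and Tap1.

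Among the class II chains, the alpha chain gene RT1-Da showed the clearest difference. Its log2 signal was 11.69 at the lowest, 12.09 at the median and 12.46 at the highest in TG hearts, against 11.28, 11.40 and 11.56 in WT hearts. Every TG heart was above every WT heart. The difference was 0.68 (SE 0.12, 95% interval 0.43 to 0.93, a 1.60-fold signal, adjusted p = 8.31e-04, exact permutation p = 0.00216, the smallest that 6 against 6 can give). With any single heart left out it stayed between 0.61 and 0.76 and was called each time.

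RT1-Ba, the alpha chain of the RT1-B class II pair, was 7.41 at the lowest, 9.74 at the median and 10.23 at the highest in TG hearts, against 7.44, 7.93 and 9.25 in WT hearts. The values of TG hearts 2, 3, 5 and 6 lay above the highest WT heart, while TG hearts 1 and 4 lay within the WT range or just under it. The mean difference was the largest of the members, at 1.16 (SE 0.45, 95% interval 0.20 to 2.13), but it did not pass the threshold (adjusted p = 0.0799, exact permutation p = 0.0584). The hearts of a group were far apart for this gene: the pooled SD within groups was 0.93, larger than that of 99.7% of all tested probes. Without TG heart 1 the difference was 1.53 (adjusted p = 0.00875) and without WT heart 3, the highest of its group, it was 1.40 (adjusted p = 0.0408), so single hearts decide this call.

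For RT1-Db1, the beta chain that pairs with RT1-Da, the lowest, median and highest values were 8.58, 9.44 and 9.84 in TG hearts, against 8.91, 9.36 and 9.58 in WT hearts. The WT hearts lay wholly inside the TG range. The difference was 0.05 (SE 0.17, 95% interval -0.31 to 0.42, adjusted p = 0.863), which leaves room for a change of up to about that size in either direction. The alpha and beta chain of the same pair went apart in some hearts and together in others. TG heart 4 was lowest of its group for RT1-Da (11.69) and highest for RT1-Db1 (9.84), and TG heart 2 ranked 2 and 5. By contrast, TG heart 1 was low for both (ranks 5 and 6), TG heart 5 was high for both (ranks 1 and 2) and WT heart 5 was lowest of its group for both.

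Cd74, the invariant chain, was 10.37 at the lowest, 10.66 at the median and 10.79 at the highest in TG hearts, against 10.39, 10.48 and 10.64 in WT hearts. TG heart 6 was below all WT hearts and 3 TG hearts were above all of them. The difference was 0.13 (SE 0.075, 95% interval -0.03 to 0.29, adjusted p = 0.238).

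**Figure D2:**
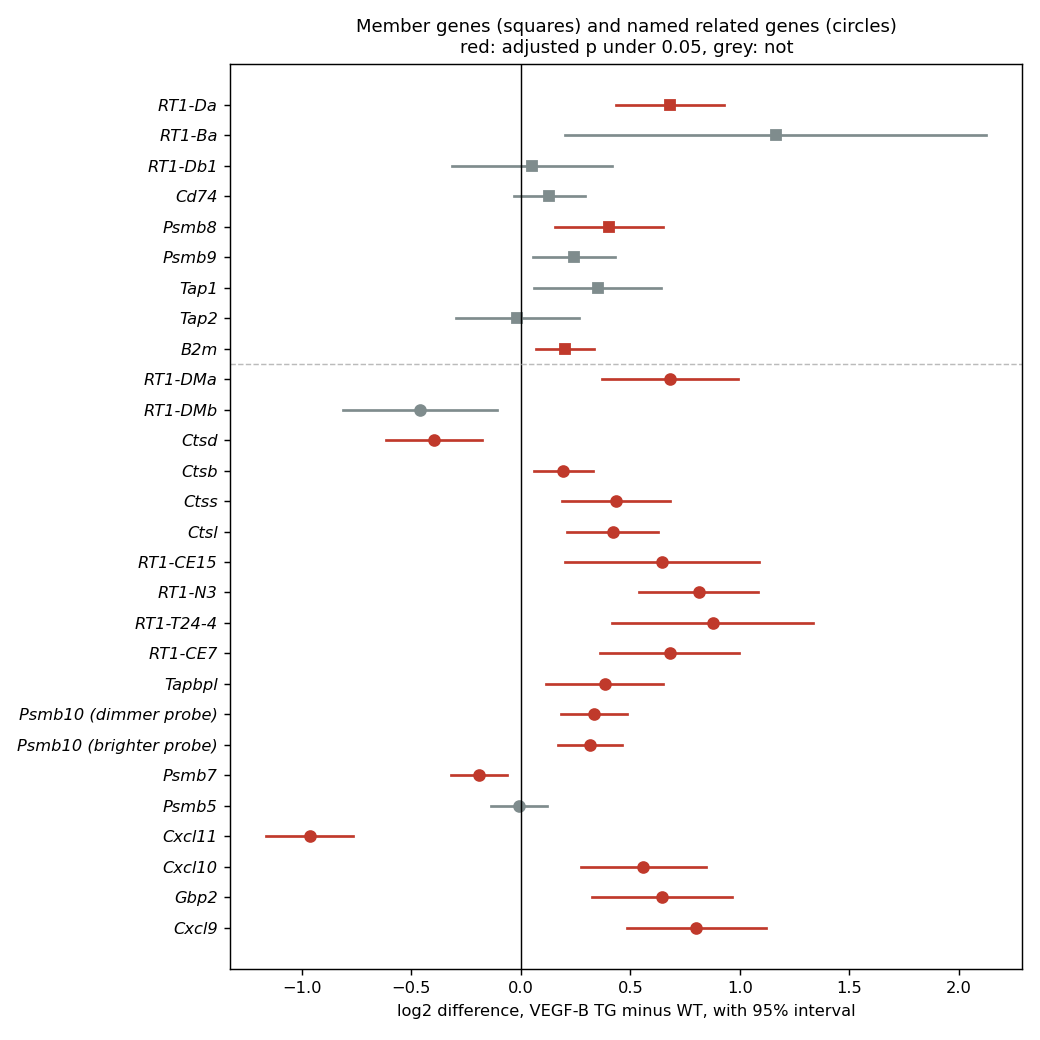
Log2 difference (VEGF-B TG minus WT) with its 95% interval for the 9 measured members (squares, above the dashed line) and the named genes of the related lists (circles), in red where the adjusted p over all tested probes was under 0.05. RT1-Da, Psmb8 and B2m are the red members, RT1-Ba has the widest interval (0.20 to 2.13), and the lowest value is that of Cxcl11 (-0.96).

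The immunoproteasome subunit Psmb8 was higher in TG hearts. Its lowest, median and highest values were 9.77, 10.21 and 10.60 in TG hearts, against 9.61, 9.79 and 9.94 in WT hearts. In 5 TG hearts it was above the highest WT heart, and TG heart 4 lay within the WT range. The difference was 0.40 (SE 0.12, 95% interval 0.16 to 0.65, adjusted p = 0.0220, exact permutation p = 0.0130). It missed the threshold without WT heart 4 (0.37, adjusted p = 0.0518) and with median scaling (0.44, adjusted p = 0.0606).

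Psmb9, another inducible catalytic subunit, was near the limit of detection. The signal was 5.89 at the lowest, 5.97 at the median and 6.35 at the highest in TG hearts, against 5.58, 5.79 and 5.99 in WT hearts. WT heart 2 (5.99) lay above 4 of the TG hearts, and the other 5 WT hearts lay below all of them. The difference was 0.24 (SE 0.088, adjusted p = 0.0619). Signal this close to background can shrink a difference, while the filter favoured a higher TG value, so the size of any change is uncertain. It was called in 1 of the 12 fits with a heart left out, the one without WT heart 2 (0.28, adjusted p = 0.0357).

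Tap1, a subunit of the peptide transporter, had values of 7.24, 7.59 and 7.96 at the lowest, median and highest in TG hearts, against 6.82, 7.32 and 7.47 in WT hearts. TG hearts 3, 5 and 6 were above all WT hearts. The difference was 0.35 (SE 0.14, 95% interval 0.06 to 0.64) and did not pass the threshold (adjusted p = 0.0793, exact permutation p = 0.0476). Of the 12 fits with a heart left out, it was called in the one without TG heart 1 (0.42, adjusted p = 0.0373).

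Tap2, its partner subunit, had nearly the same mean in both groups. Its lowest, median and highest values were 6.35, 6.91 and 7.24 in TG hearts, against 6.79, 6.83 and 7.14 in WT hearts. The TG hearts spread on both sides of the WT hearts. The difference was -0.02 (SE 0.13, 95% interval -0.30 to 0.26, adjusted p = 0.949), and its sign turned with median scaling, with array weights and without TG heart 2, TG heart 6 or WT heart 3, so it has no direction.

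B2m, the light chain shared by all class I molecules, was 14.62 at the lowest, 14.73 at the median and 14.79 at the highest in TG hearts, against 14.40, 14.53 and 14.59 in WT hearts. The groups did not overlap, although the step between them is small. The difference was 0.20 (SE 0.061, 95% interval 0.07 to 0.33, a 1.15-fold signal, adjusted p = 0.0288, exact permutation p = 0.00216). Its hearts were close together, with a pooled SD of 0.076 that only 4.35% of tested probes undercut. Before normalization the intensities of the groups did overlap (22890 to 27677 in TG and 22191 to 27258 in WT hearts). The call was lost without TG heart 3, 5 or 6 or WT heart 4 or 5 (adjusted p up to 0.0634) and with median scaling (0.23, adjusted p = 0.238).

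The spread between hearts of the same genotype differed strongly among the members. Beside RT1-Ba, RT1-Db1 was in the upper part of all tested probes (pooled SD 0.34, above 96.2% of them), Tap1 and Tap2 were above 88.8% and 87.1%, and RT1-Da and Psmb8 were above 76.9% and 76.4%. Psmb9 (42.7%), Cd74 (22.6%) and B2m (4.35%) were in the lower part. Cd74 and B2m lie outside the RT1 region, while the chains, transporter and proteasome members, Psmb9 among them, lie within it. These shares are over all tested probes and were not matched for brightness, and a link of spread to location was not tested.

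**Figure D3:**
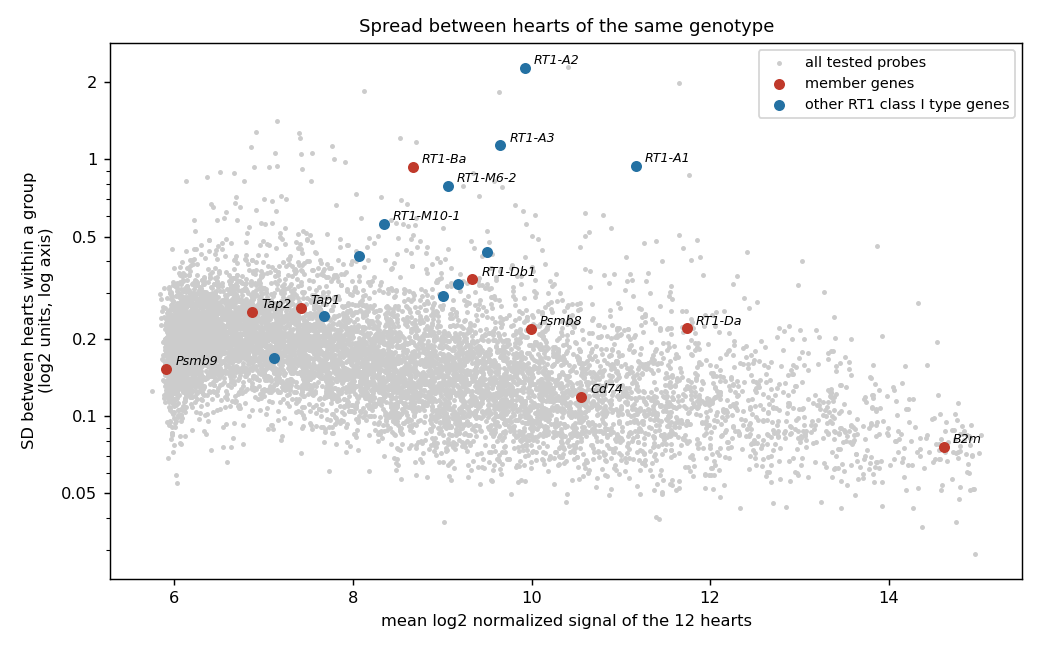
Pooled SD between hearts of the same genotype (log axis) against the mean log2 signal of the 12 hearts, for all 9054 tested probes (grey), the members (red) and the other RT1 class I type genes (blue). RT1-Ba (0.93) lies above nearly all probes of its brightness and B2m (0.076) at the low end of the members. RT1-A2 (2.28), RT1-A3 (1.13), RT1-A1 (0.94), RT1-M6-2 (0.79) and RT1-M10-1 (0.56) are other widely spread RT1 genes.

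The remaining genes of the pathway were counted from lists of related genes, and 17 of their probes were called higher and 3 lower. Over all tested probes the shares were 11.6% higher and 10.3% lower, for this count and the list and marker counts below. Of the other class II genes, 2 of 5 with a probe were tested. RT1-DMa, the alpha chain of the peptide loader, was 6.69 at the lowest, 7.39 at the median and 7.54 at the highest in TG hearts, against 6.35 at the lowest and 6.51 at the median in WT hearts (0.68, SE 0.15, adjusted p = 0.00407). In 5 TG hearts it was above the highest WT heart, and TG heart 4 lay within the WT range. Its partner RT1-DMb differed by -0.46 (SE 0.16, adjusted p = 0.0597), with TG hearts at 9.17 to 10.37 and WT hearts at 9.82 to 10.40. RT1-DMb was called lower under several alternatives, among them without TG heart 4 (-0.60, adjusted p = 0.00437) and no background correction (-0.40, adjusted p = 0.0444). The chains of the loading regulator, RT1-DOa and RT1-DOb, were detected on at most 2 arrays.

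The class II transcription machinery could be followed only in part. The probe of Ciita, the class II transactivator whose presence is known to switch these genes on, was detected on no array, and neither was that of Rfxap. Of the 3 tested genes of that list (Rfxank, Nfyb and Nfyc), 0 were called in either direction, with differences between -0.13 and 0.03. Nfyc, a subunit of the Y box factor, differed by 0.03 (SE 0.073, adjusted p = 0.793).

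Among 8 tested genes of lysosomal processing, 3 were called higher and 1 lower (median difference 0.16). Ctsl (cathepsin L), a protease that trims the invariant chain, was higher in every TG heart (13.06 to 13.73) than in any WT heart (12.81 to 12.94), with a difference of 0.42 (SE 0.098, adjusted p = 0.00705), which missed the threshold with median scaling (0.41, adjusted p = 0.0878). Ctss (cathepsin S), which takes the last cut of the invariant chain in antigen-presenting cells, was higher by 0.43 (SE 0.12, adjusted p = 0.0150), and Ctsb (cathepsin B) by 0.19 (SE 0.063, adjusted p = 0.0399). The Ctsb call held in 3 of 12 fits with a heart left out. Ctsd (cathepsin D) was lower, at 7.91 to 8.40 in TG and 8.29 to 8.92 in WT hearts (-0.40, SE 0.10, adjusted p = 0.0131).

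On the class I side, 11 of 27 heavy chain type genes were detected well enough to be tested, and 4 were called higher and 0 lower (median difference 0.65). RT1-N3 was 7.66 to 8.39 in TG and 6.99 to 7.42 in WT hearts (0.81, SE 0.13, adjusted p = 4.46e-04), and RT1-CE7 was 9.03 to 9.74 in TG and 8.33 to 9.01 in WT hearts (0.68, SE 0.15, adjusted p = 0.00496). Neither overlapped between groups. RT1-T24-4 differed by 0.88 (SE 0.21, adjusted p = 0.00939) and RT1-CE15 by 0.65 (SE 0.21, adjusted p = 0.0378), the last called in 3 of 12 fits with a heart left out. Each rests on 1 probe in a family of near-identical copies. Tested but not called were RT1-A2 (1.00, adjusted p = 0.558), RT1-M6-2 (0.67, adjusted p = 0.236), RT1-A1 (0.35, adjusted p = 0.629) and RT1-M10-1 (0.31, adjusted p = 0.459). The same held for RT1-A3 (0.24, adjusted p = 0.793), RT1-S3 (0.07, adjusted p = 0.789) and RT1-M3-1 (-0.20, adjusted p = 0.153). The hearts of a group were far apart for several of these, with a pooled SD of up to 2.28 (RT1-A2). The summed normalized signal of the 11 probes ran from 6258 to 15274 in TG and 5040 to 9343 in WT hearts.

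Of 6 tested genes that help load class I heavy chains, Tapbpl (a tapasin-like peptide editor) was called higher (0.38, SE 0.12, adjusted p = 0.0399, in 4 of 12 fits with a heart left out), and the endoplasmic reticulum chaperone Hspa5 differed by 0.14 (SE 0.087, adjusted p = 0.261). All 6 differences were above 0 (median 0.19), of which 1 was called. Among inducible proteasome genes, both probes of Psmb10, the third interferon-inducible catalytic subunit, were called higher. The difference was 0.33 for one of them (SE 0.070, adjusted p = 0.00370). For the other it was 0.32 (SE 0.069, adjusted p = 0.00473), and both were called with each heart left out. The activator subunits differed by -0.21 for Psme1 (SE 0.075, adjusted p = 0.0642) and 0.05 for Psme2 (SE 0.094, adjusted p = 0.754). Of the constitutive subunits that the inducible ones replace, Psmb7, the counterpart of Psmb10, was lower (-0.19, SE 0.060, adjusted p = 0.0327), at 11.93 ± 0.054 in TG and 12.12 ± 0.085 in WT hearts (SD, n = 6 each) without overlap. Psmb5, the counterpart of Psmb8, differed by -0.0083 (SE 0.059, adjusted p = 0.941) and Psmb6, that of Psmb9, by -0.07 (SE 0.066, adjusted p = 0.479). The Psmb7 call held in 4 of 12 fits with a heart left out.

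Of 10 tested genes of interferon-gamma signalling, a pathway whose textbook targets include most of the members, 6 were called higher and 1 lower (median difference 0.37). Cxcl9, a chemokine named for its induction by interferon-gamma, was 8.52 to 9.39 in TG and 7.80 to 8.32 in WT hearts (0.80, SE 0.15, adjusted p = 0.00154). Gbp2, a guanylate-binding protein, differed by 0.64 (SE 0.15, adjusted p = 0.00693) and the chemokine Cxcl10, detected in 6 TG and 3 WT hearts, by 0.56 (SE 0.13, adjusted p = 0.00784). Without Cxcl10, which could pass the filter through the TG hearts alone, 5 of 9 were called higher and 1 lower. The receptor chain Ifngr1 (0.41, adjusted p = 0.0101) and the transcription factors Irf9 (0.42, adjusted p = 0.0331) and Irf1 (0.33, adjusted p = 0.0384) were also higher. Cxcl11, another chemokine of the same receptor, went the other way, at 8.89 to 9.27 in TG and 9.87 to 10.34 in WT hearts (-0.96, SE 0.092, adjusted p = 7.05e-06). The Ifng probe itself was detected on 2 arrays.

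**Figure D4:**
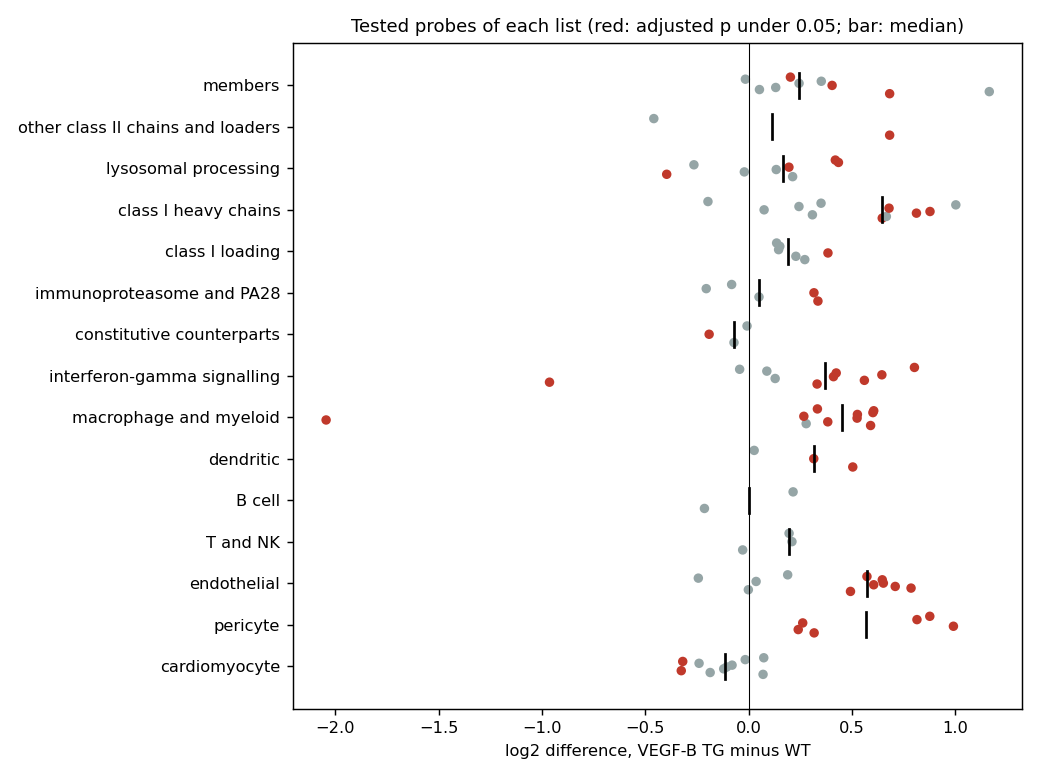
Log2 difference (VEGF-B TG minus WT) of each tested probe of the members, the related lists and the cell type marker lists, in red where the adjusted p was under 0.05, with a bar at each list's median. Members have a median of 0.24, class I heavy chains of 0.65, endothelial markers of 0.57 and macrophage markers of 0.45, against -0.0086 over all tested probes.

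The RT1 genes also differed between hearts in a way that crossed genotype. The probe of RT1-A2, a classical class I heavy chain gene, read 5.44 in TG heart 4 and 5.30 in WT heart 2, and was not detected in these hearts, while the other 10 hearts were at 9.67 to 11.91. Its pooled SD of 2.28 was above 99.99% of tested probes. The same hearts were the highest of their groups for RT1-Db1 (9.84 and 9.58), RT1-CE15 (8.90 and 8.31) and RT1-S3 (9.67 and 9.75), and the lowest for RT1-M6-2 (7.90 and 8.11). These genes were picked after the values were seen, and the 2 hearts were unlike for others. WT heart 2 was the highest of its group for RT1-A1 (11.84), RT1-A3 (10.43) and RT1-M10-1 (8.76). For these, TG heart 4 was in the middle of its group (11.77, 10.48 and 8.57). TG heart 1 stood apart as well. It was the lowest of the 12 hearts for RT1-Ba (7.41), RT1-Db1 (8.58), RT1-DMb (9.17), RT1-A1 (8.99), RT1-A3 (6.99), RT1-CE15 (7.47) and RT1-M10-1 (7.40). Its RT1-Da (11.83), RT1-CE7 (9.74) and RT1-T24-4 (10.09) lay above all WT hearts. The littermates of an outbred stock were not typed for RT1 in the sources used here, so no heart can be given an RT1 type, and these hearts were not regrouped or compared with the others. Without TG heart 1, RT1-Ba and Tap1 were called as given above, and without TG heart 4, the difference of RT1-Db1 was -0.04.

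**Figure D5:**
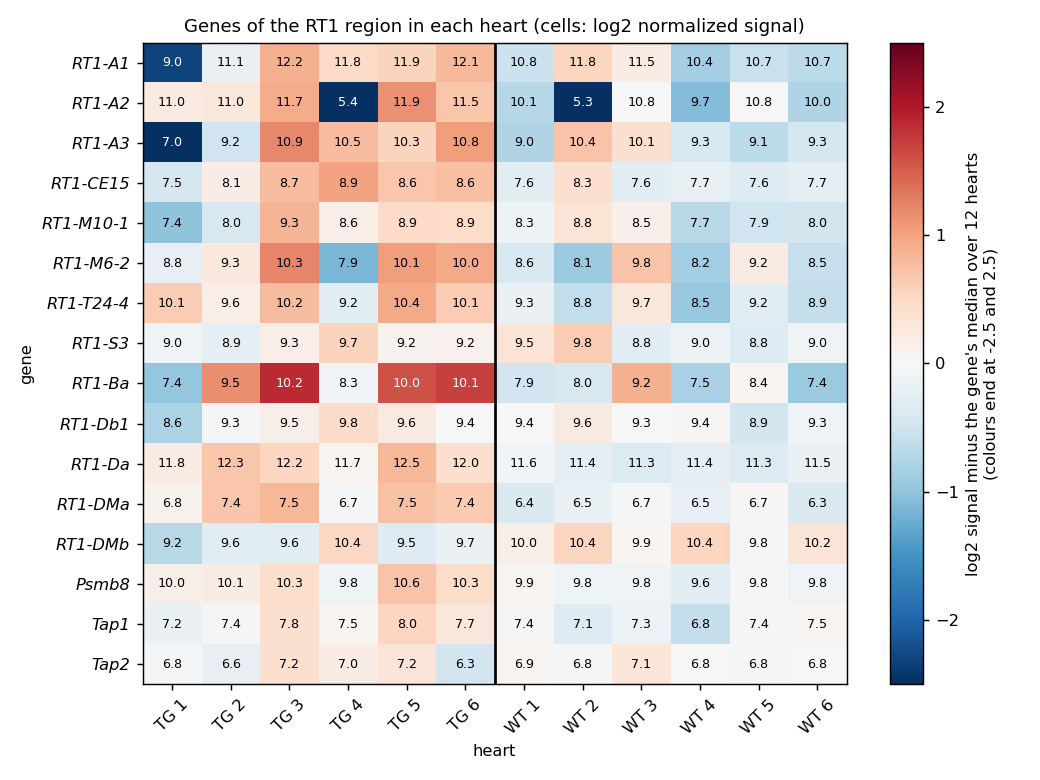
Log2 normalized signal of class I type, class II and processing genes of the RT1 region in each heart (columns, VEGF-B TG on the left of the line and WT on the right), coloured by the distance from the gene's median over the 12 hearts. The dark blue cells mark RT1-A2 in TG heart 4 (5.44) and WT heart 2 (5.30) and RT1-A1 (8.99) and RT1-A3 (6.99) in TG heart 1.

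Variation between hearts, within genotypes, was compared with the mean of RT1-Da, RT1-Ba, RT1-Db1 and Cd74 over the 12 hearts. The genes most like it were sought among 6809 tested named probes of other genes. As a description, Pearson's r was 0.94 (Spearman's rho 0.90) for Gak, and r was 0.91 for Hip1, Tmem98 and Trim8 and 0.89 for Ric8a. That mean mostly followed RT1-Ba (r = 0.95), and less RT1-Da (0.59), RT1-Db1 (0.57) and Cd74 (0.25), so the likeness is largely to RT1-Ba. None of the 5 genes was called between genotypes, the lowest adjusted p being 0.0617 for Ric8a.

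Markers of cell types that can carry class II molecules were read beside the members, and their part in the results was not tested. Of 10 tested macrophage and myeloid markers, 8 were called higher and 1 lower (median difference 0.45). One of the 8, Tyrobp, was detected in 6 TG and 2 WT hearts and so passed the filter through the TG hearts, and without it the counts were 7 and 1 of 9. The list had summed normalized signals of 3444 to 5250 in TG and 3060 to 3680 in WT hearts. Fcer1g (0.60, adjusted p = 0.00150) and Aif1 (0.59, adjusted p = 0.00737) were among the higher ones, as were the complement genes C1qa (0.52, adjusted p = 0.00992) and C1qb (0.60, adjusted p = 0.00772), while C1qc, the third chain of the same complex, was lower (-2.04, adjusted p = 4.55e-06). The integrin gene Itgam and the macrophage marker Adgre1 were detected on no array. Ptprc and Cd163 were detected in 1 TG heart each and Cx3cr1 in 1 TG and 1 WT heart, so they were not tested. Cd68, Csf1r, Lyz2 and Itgb2 had no named probe, and Lyve1 was tested but not called (0.28, adjusted p = 0.201). Of 3 tested dendritic cell markers, Cd83 (0.50, adjusted p = 0.00502) and Clec10a (0.31, adjusted p = 0.0242) were called higher. Summed normalized signals of the 3 were 1295 to 1566 in TG and 1142 to 1262 in WT hearts. The defining markers Flt3, Xcr1, Clec9a and Batf3 were detected on no array. For B cells, the defining markers Ms4a1, Pax5 and Cd22 were detected on no array, and 0 of the 2 tested markers were called. Summed normalized signals of these 2 were 132 to 170 in TG and 132 to 157 in WT hearts. For T and NK cells 0 of 3 were called, with sums of 291 to 571 in TG and 290 to 460 in WT hearts. No neutrophil marker was tested, as 4 of 5 were detected on no array.

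Vessel cell markers differed as well, and their part was not tested either. Of 11 tested endothelial probes, 7 were called higher and 0 lower (median difference 0.57). Their summed normalized signals did not overlap (13174 to 16379 in TG and 8978 to 11097 in WT hearts). All 6 tested pericyte markers were called higher (sums of 5706 to 6930 in TG and 4198 to 4766 in WT hearts). Rgs5, detected in 6 TG and 1 WT hearts, passed the filter through the TG hearts, which leaves 5 of 5 others. Cardiomyocyte markers had 0 called higher and 2 lower of 10 probes (median difference -0.11), fibroblast markers 0 and 1 of 7, and red cell markers 0 and 0 of 5.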

How the data were processed

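Left ventricular RNA of 12 rats was measured on 1 Illumina RatRef-12 array per heart, and groups came from the sample titles. The authors deposited bead intensities from GenomeStudio, neither normalized nor background subtracted, with a detection p-value per probe and array (a low p-value means signal above negative control beads). They also deposited log2 values, quantile normalized in Chipster, which differed by at most 0.00883 from log2 quantile values computed from the deposited intensities. Tool versions of the authors were not given in the sources used here.

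From the intensities, background was corrected with neqc of limma 3.58.1 in R 4.3.3 (offset 16, background from the detection p-values), and the values were quantile normalized and put on the log2 scale. The 9054 of 22517 probes that 6 or more arrays detected (p below 0.05) were fitted with lmFit and eBayes, and p-values were adjusted by Benjamini-Hochberg over all of them with a threshold of 0.05. For single values a 2-sided exact permutation test ran through all 924 assignments, and 0.00216 is its smallest p. The fit was tested on simulated data. Plots used matplotlib 3.10.9.

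Gene names came from the platform annotation, updated by gene number to GRCr8 RefSeq symbols: 13787 probes had 1 symbol (13747 updated, 40 kept), 0 had several and 8730 had none. The array's genome build was not used, and only RefSeq promoter windows carry coordinates. The members and lists were chosen with earlier results of these data known. Every member probe was reported. Of each related list, up to 4 called probes with the smallest p were named, and the brightest tested one where fewer than 2 were called, with the 5 genes most like the class II mean. Other genes named (marker genes, further RT1 and proteasome genes, undetected regulators, Ifngr1, Irf1, Irf9 and Vegfb) were chosen after their values were seen. Alternatives were no background correction, normexp (offset 50), cyclic loess or median scaling in place of quantile normalization, the deposited log2 table, no filter, a strict filter (every array detecting the probe at p below 0.01), robust variances with a trend, the replicate number as a block, array weights, a threshold of 0.01 and leaving out each array. Counts without probes that passed the filter through the TG hearts were added after seeing the data.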

Additional observations from a re-analysis of the deposited data

Results flagged for a closer look

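A heart is listed here where its value was the highest or lowest of its 6 and stood off from the next one by a share of the group's range above Dixon's critical value for 6 values at the 95% level. Of 60 groups looked at (the members and named related probes in each genotype), 4 held such a value, and chance gives about 1 in 20 groups. Tap2 read 7.14 in WT heart 3, above the other WT hearts (ratio 0.704). RT1-CE15 read 8.31 in WT heart 2 (ratio 0.841), one of the 2 hearts in which RT1-A2 was not detected. Tapbpl read 7.86 in TG heart 5 (ratio 0.693). One probe of Psmb10 read 8.65 in TG heart 1, below the other TG hearts (ratio 0.664). Without these hearts, the difference of Tap2 was 0.04 (no WT heart 3), that of RT1-CE15 0.76 (no WT heart 2, adjusted p = 0.0163), that of Tapbpl 0.29 (no TG heart 5, adjusted p = 0.0755) and that of the Psmb10 probe 0.39 (no TG heart 1, adjusted p = 6.99e-04).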

How the results depend on the processing

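RT1-Da was called higher under all 11 other settings and with each heart left out (0.61 to 0.76). With median scaling, the split of all called probes moved to 65.0% higher, against 53.0% in the main setting, with 449 in place of 931 lower, and 1 member was called: B2m (0.23, adjusted p = 0.238) and Psmb8 (0.44, adjusted p = 0.0606) missed the threshold. At an adjusted p of 0.01, 561 probes were called higher and 475 lower, 1 member was called (B2m at 0.20 and Psmb8 at 0.40 were not), and of the related probes 10 were higher and 1 lower. The related lower count of 3 was 6 with no background correction, normexp with an offset of 50, the deposited log2 table or the strict filter, and 5 with trend and robust variances. Tap2 turned to 0.056 with median scaling and 0.021 with array weights, and to 0.030, 0.086 and 0.036 without TG heart 2, TG heart 6 and WT heart 3. RT1-Db1 turned to -0.043 and -0.029 without TG heart 4 and WT heart 5, and Psmb5 to 0.010 and 0.0085 without TG heart 2 and WT heart 5. With a heart left out, all probes called ran from 846 to 1016 higher and 751 to 967 lower, members called from 1 to 5, related probes from 12 to 18 higher and 2 to 4 lower, B2m from 0.18 to 0.22, Psmb8 from 0.32 to 0.49, Psmb9 from 0.18 to 0.28, RT1-Ba from 0.97 to 1.53, Tap1 from 0.27 to 0.42, Tap2 from -0.091 to 0.086, Psmb5 from -0.038 to 0.010, RT1-Db1 from -0.043 to 0.21 and Cd74 from 0.10 to 0.18. The cause of these changes was not tested, except that each such fit had 1 heart fewer. Hearts with the same replicate number correlated at -0.14 to 0.23, with 4 of 6 pairs over 0.1, and 3 of 6 TG hearts were most like the WT heart of their own number. The labels give only the number, and whether hearts of the same number shared more than that was not tested. With the replicate number as a block, RT1-Ba (1.16, adjusted p = 0.0239) and Tap1 (0.35, adjusted p = 0.0481) passed the threshold and B2m (0.20, adjusted p = 0.0572) did not, and 4 members were called. Of the named related probes, Ctsb and Psmb7 lost their calls and RT1-DMb gained one under it, and Ctsl, Ctsb, Psmb7 and Tapbpl lost theirs with median scaling. Psmb9 could not be tested under the strict filter, and its signal near background limits what can be seen of it.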
